A study of Mus musculus with 22 samples.

Results

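Cannabidiol (CBD), a non-intoxicating compound of the cannabis plant, was tested here against an immune challenge in microglia, the resident macrophages of the brain, from mice exposed earlier in life to Gulf War chemicals. The comparison took 4 libraries of exposed mice given CBD and then lipopolysaccharide (GW-CBD-LPS, library numbers 1 to 4) against 3 libraries of exposed mice given vehicle and then lipopolysaccharide (GW-LPS, library numbers 2 to 4), 7 of the 22 libraries of the series, and used all genes. All mice were male C57BL/6J. Mice of both groups had been given pyridostigmine bromide at 0.7 mg/kg and permethrin at 200 mg/kg into the peritoneum each day for 10 days from 10 weeks of age, and were aged to 17.5 months. CBD at 30 mg/kg was given every day for 28 days and then every 2 days for 2 weeks, and GW-LPS mice had vehicle. Both groups then had 1 dose of lipopolysaccharide from Escherichia coli at 0.33 mg/kg, and brains were taken 24 hours later, so both carried the chemical exposure and the challenge and differed in CBD. The other groups were exposed mice with saline in place of lipopolysaccharide (GW-PBS, 4 libraries, and GW-CBD-PBS, 3 libraries) and mice without chemical exposure or CBD (Ctrl-PBS and Ctrl-LPS, 4 libraries each). There was no group with CBD and lipopolysaccharide but without the chemicals, so whether the CBD difference needs the exposure was not tested. Since the labels do not tie each library to its own mouse, the spread behind every p-value is that between libraries, which may be technical.

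Lipopolysaccharide (LPS) is a bacterial cell wall component that is sensed by Toll-like receptor 4 and its adaptor MyD88, and the signal passes through NF-kB to inflammatory genes. Microglia answering such a signal lose transcripts of their resting state, such as the purine receptor P2ry12, and gain receptors for complement fragments, antibodies and cytokines. CBD binds the classical cannabinoid receptors weakly and is known to act on several other channels and receptors, among them transient receptor potential channels.

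The 3 GW-LPS libraries held 32803017 to 37990923 counts and the 4 GW-CBD-LPS libraries 28676930 to 37752035. Microglial markers were abundant: the summed level of 10 of them was 29850 to 38340 CPM (counts scaled to a common library total) in GW-LPS and 41860 to 50090 in GW-CBD-LPS, and 3 of the 10 were called higher with CBD by edgeR and 4 by DESeq2. GW-LPS library 3 stood apart in several measures. Its 12 neutrophil markers summed to 252 CPM, against 15.8 and 56.2 in the other GW-LPS libraries and 4.17 to 16.6 in GW-CBD-LPS. All 12 neutrophil markers had a lower fitted level with CBD, with a median of -4.94 on the log2 scale; edgeR called 0 of them, with 1 at an unadjusted p under 0.05, and DESeq2 called 1. The defining marker Ly6g had 0, 56 and 1 counts in GW-LPS libraries 2, 3 and 4 and 0 in every GW-CBD-LPS library. The 6 ependymal and choroid plexus markers summed to 45.0, 378 and 102 CPM in GW-LPS libraries 2, 3 and 4 and to 10.4 to 49.1 CPM in GW-CBD-LPS. Of the 206 genes later found lower with CBD, 164 had their highest GW-LPS value in library 3, and of the 176 found higher, 123 had their lowest GW-LPS value there. The part of these other cells in the results was not tested, and values without that library are given beside the results that change without it. In sorted cells measured in bulk, fewer cells of a type and less RNA per cell cannot be told apart.

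CBD before LPS left 382 of 16554 tested genes changed, 2.31% of those tested, at an adjusted p under 0.05 by edgeR's quasi-likelihood test. Of these, 176 were higher with CBD (1.06% of those tested), with a median difference of 1.11 on the log2 scale, and 206 were lower (1.24%), with a median of -0.91. The median over all genes was 0.01. DESeq2 called 900 of the same 16554 genes, 529 higher and 371 lower. Its counts within the lists below are to be read beside that larger number. In 366 of the 382 the 2 groups did not overlap in any library, as in 2125 of all tested genes (12.8%); the call itself favours such genes. A difference of more than 2-fold was found in 100 of the higher and 89 of the lower genes, and of more than 4-fold in 26 and 28. The number of calls rested on single libraries: 97 genes were called without GW-LPS library 3, 152 without GW-LPS library 4, 158 without GW-CBD-LPS library 1, 190 without GW-CBD-LPS library 3, and 532 without GW-CBD-LPS library 2. In each of the 7 fits that left out 1 compared library, 75 of the 382 genes stayed called, 32 of them higher and 43 lower. When the spread was estimated from the 7 compared libraries alone, 0 genes were called by edgeR, with 2047 at an unadjusted p under 0.05 and a smallest adjusted p of 0.0562.

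**Figure D1:**
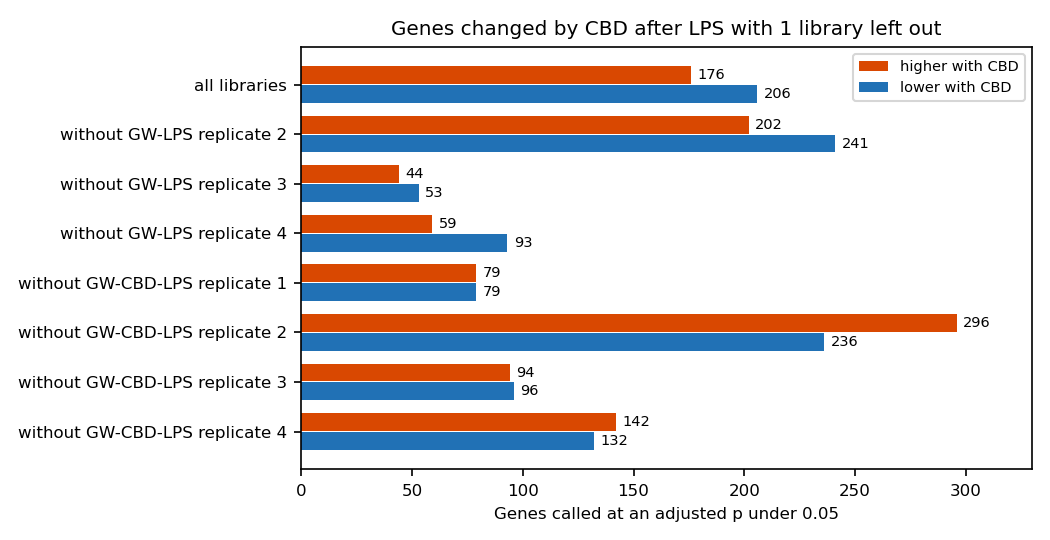
Number of genes called higher (orange bars) or lower (blue bars) in GW-CBD-LPS than in GW-LPS, with all libraries and with each of the 7 compared libraries left out; the x axis counts genes. The lowest bars, 44 higher and 53 lower, are those without GW-LPS replicate 3.

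RefSeq (GRCm38.p6) gave a window for 56 of the 67 named genes, and the 250 bases before the start were searched on both strands for 5 short motifs. The E-box CACGTG, which is bound by clock and Myc family factors, was in 24 of 173 windows of genes lower with CBD (13.9%), 14 of 135 of those higher (10.4%) and 8.3% of all tested genes with a window. The windows of 4 genes that fell with CBD and hold it are shown, with the E-box in capitals, and Cdk1 is shown with matches to the E2F-type motif TTTNNCGC in capitals, since it is the mitotic gene called higher. In Fkbp5, Il1r2 and Per1 the RefSeq start lies inside the longer GENCODE gene. The windows are chr1:40085843-40086092 (plus strand) for Il1r2, chr1:171558943-171559192 (plus) for Cd244a, chr11:69098699-69098948 (plus) for Per1, chr17:28486150-28486399 (minus) for Fkbp5 and chr10:69352913-69353162 (minus) for Cdk1.
Il1r2: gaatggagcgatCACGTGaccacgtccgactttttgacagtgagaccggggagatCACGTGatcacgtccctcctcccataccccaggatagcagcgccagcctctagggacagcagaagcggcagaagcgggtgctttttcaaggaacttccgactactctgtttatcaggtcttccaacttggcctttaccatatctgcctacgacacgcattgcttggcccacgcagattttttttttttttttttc
Cd244a: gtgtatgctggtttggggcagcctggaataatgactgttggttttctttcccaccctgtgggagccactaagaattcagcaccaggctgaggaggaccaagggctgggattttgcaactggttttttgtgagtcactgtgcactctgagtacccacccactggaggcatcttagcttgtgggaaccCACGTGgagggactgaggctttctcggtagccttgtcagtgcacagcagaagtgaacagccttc
Per1: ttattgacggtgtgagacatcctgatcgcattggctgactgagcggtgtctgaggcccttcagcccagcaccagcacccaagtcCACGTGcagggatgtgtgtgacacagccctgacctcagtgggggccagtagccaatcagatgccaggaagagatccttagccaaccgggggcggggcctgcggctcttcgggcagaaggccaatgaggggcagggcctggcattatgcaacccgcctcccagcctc
Fkbp5: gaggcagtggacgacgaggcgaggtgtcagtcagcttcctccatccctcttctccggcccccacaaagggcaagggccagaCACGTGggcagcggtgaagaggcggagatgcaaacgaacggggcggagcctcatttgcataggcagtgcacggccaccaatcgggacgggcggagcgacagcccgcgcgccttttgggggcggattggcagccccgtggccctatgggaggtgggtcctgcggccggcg
Cdk1: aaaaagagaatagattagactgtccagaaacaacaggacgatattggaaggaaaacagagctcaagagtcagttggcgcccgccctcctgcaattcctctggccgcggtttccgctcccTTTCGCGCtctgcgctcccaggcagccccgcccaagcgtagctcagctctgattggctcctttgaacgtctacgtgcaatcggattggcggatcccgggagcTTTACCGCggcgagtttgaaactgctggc
The E2F-type motif was in 8 of 32 windows of S phase genes (25.0%), 2 of 28 of mitotic genes (7.14%) and 6.89% of all tested genes with a window. It was in 6.94% of windows of lower and 6.67% of higher genes, and the E-box in 6.25% of windows of S phase and 7.14% of mitotic genes. TTCNNNGAA, a STAT-type motif, was in 8.09% of windows of lower, 7.41% of higher, 9.38% of S phase and 0.0% of mitotic genes, against 5.89% of tested genes. GGGA followed after 4 bases by CC, of NF-kB type, was in 23.1%, 18.5%, 34.4% and 35.7% of the same lists against 22%. ACANNNTGT, the core of a glucocorticoid receptor site, was in 2.89%, 3.70%, 3.12% and 3.57% against 3.80%. Among all 27025 windows, 4.39% held the E2F-type motif, 6.05% the E-box, 7.18% the STAT-type, 17.3% the NF-kB-type and 5.91% the glucocorticoid receptor motif. These matches describe letters in a window and are not binding sites.

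The falls with CBD included a secreted matrix protein and 3 receptors for complement fragments. Adamtsl4, a secreted ADAMTS-like protein of the extracellular matrix, was at 23.4, 142 and 48.7 CPM in GW-LPS libraries 2, 3 and 4 and at 2.87, 6.50, 1.75 and 3.53 in GW-CBD-LPS libraries 1 to 4. Every CBD library was below every GW-LPS library, and the gene fell by 4.28 ± 0.53 on the log2 scale (SE, adjusted p = 0.000401). C5ar1, the receptor for the complement fragment C5a, was at 1067, 2432 and 1310 CPM without CBD and at 378, 607, 362 and 465.8 with it. The groups did not overlap, and C5ar1 fell by 1.82 ± 0.23 (adjusted p = 0.000505), still by 1.39 without GW-LPS library 3 (adjusted p = 0.00244). Its neighbour C5ar2, a second C5a receptor, was at 44.7, 71.5 and 58.3 CPM and then at 34.5, 37.2, 36.2 and 22.9, a fall of 0.83 ± 0.21 (adjusted p = 0.042). That call was lost without each of GW-CBD-LPS libraries 1, 3 and 4 and GW-LPS libraries 3 and 4, with adjusted p of 0.0708 to 0.309, and with other size factors (adjusted p = 0.05002). C3ar1, the receptor for C3a, was at 586, 1064 and 624.8 CPM against 445, 497, 475 and 458, a fall of 0.69 ± 0.16 (adjusted p = 0.0227). Without GW-LPS library 3 the fall was 0.36 (adjusted p = 0.269), and the call was also lost without GW-CBD-LPS libraries 1, 3 or 4 (lowest adjusted p where lost, 0.0553). By edgeR these 3 receptors were the only genes called among the 17 tested complement genes, whose median was -0.04, and DESeq2 called 3, all lower.

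Myd88, the adaptor that carries the Toll-like receptor signal into the cell, was at 188, 212 and 223 CPM in GW-LPS and at 123, 128, 129 and 132 in GW-CBD-LPS. The 4 CBD libraries lay within a narrow band below all 3 others, a fall of 0.70 ± 0.09 (adjusted p = 0.00106; 0.00734 without GW-LPS library 3). Other parts of the LPS sensor did not pass the test: Tlr4, the LPS receptor, was at 101 to 111 CPM and then at 89.5 to 129 (log2 difference -0.02 ± 0.19, adjusted p = 0.981). Cd14, its co-receptor, was at 791, 1539 and 836 CPM and then at 684, 775, 848 and 934 (log2 difference -0.38 ± 0.27, adjusted p = 0.600). Among 28 tested genes of Toll-like receptors and LPS sensing, Myd88 fell and 2 rose by edgeR, with a median of -0.23, and DESeq2 called 3 higher and 2 lower. The risers were Cd180, a Toll-like protein that restrains Tlr4 signalling in several cell types, and Tlr12, a receptor for profilin of parasites. Cd180 went from 26.5, 14.01 and 19.1 CPM to 45.9, 40.1, 59.9 and 52.6, a rise of 1.32 ± 0.24 (adjusted p = 0.00571) that missed the threshold without GW-LPS library 3 (1.13, adjusted p = 0.0596). Tlr12 went from 64.9, 26.6 and 50.3 CPM to 109, 89.6, 110 and 92.8, a rise of 1.09 ± 0.23 (adjusted p = 0.0145), which was lost without GW-CBD-LPS library 1 or GW-LPS libraries 3 or 4 (adjusted p of 0.051 to 0.115). Neither group pair overlapped.

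Of 36 tested cytokine and NF-kB genes 3 fell and 0 rose by edgeR, with 1 higher and 3 lower by DESeq2, and their median was -0.13. Bcl3, a nuclear IkB family member that modulates NF-kB p50 and p52 dimers, was at 55.1, 92.2 and 77.3 CPM without CBD and at 16.3, 27.4, 14.6 and 21.8 with it, with no overlap, and fell by 1.90 ± 0.27 (adjusted p = 0.00141). Il4ra, the receptor chain shared by interleukins 4 and 13, was at 661, 926 and 890 CPM and then at 335, 442, 256 and 261, a fall of 1.35 ± 0.22 (adjusted p = 0.00257). The third was Il1r2, the decoy receptor for interleukin 1 whose window holds 2 E-boxes, at 3.37, 287 and 13.1 CPM and then at 0.34, 0.49, 0.42 and 0.36. Il1r2 spanned a wide range within GW-LPS and was highest in library 3, the one with the raised neutrophil markers. The fitted fall of 7.94 ± 1.62 (adjusted p = 0.0103) was 4.31 without that library (adjusted p = 0.206), and it was also lost without GW-CBD-LPS library 1 (adjusted p = 0.0503). In Ctrl-LPS libraries 1 to 4 Il1r2 was at 436, 117, 14.6 and 214 CPM. The neutrophil markers summed to 2335, 51.1, 17.3 and 62.3 CPM in the same libraries. In Ctrl-PBS library 3 they summed to 26290 CPM, with Il1r2 at 30.7. The part of neutrophils in the level of Il1r2 was not tested.

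The inflammatory cytokines that LPS is best known to induce did not pass the test at 24 hours. Il1b was at 157, 219 and 145 CPM in GW-LPS and at 70.4, 176, 68.3 and 112 in GW-CBD-LPS (log2 difference -0.70 ± 0.60, adjusted p = 0.679). Tnf was at 66.2, 96.2 and 80.8 CPM and then at 47.0, 114, 60.4 and 60.2 (-0.20 ± 0.42, adjusted p = 0.905). In both genes GW-CBD-LPS library 2 was the highest of the CBD libraries. It lay among the GW-LPS values in Il1b and above all of them in Tnf. The chemokine Cxcl10 was at 12.6, 3.99 and 11.8 CPM against 16.4, 24.2, 21.8 and 18.7 (1.10 ± 0.55, adjusted p = 0.381), the opposite side of 0. By edgeR 0 of 19 tested chemokine genes were called, with 1 at an unadjusted p under 0.05, and DESeq2 called 1 higher.

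Of 27 tested genes of Fc receptors and phagocytosis edgeR called 4, all lower, and DESeq2 called 5, 1 of them higher. The list's median was -0.03, with 12 fitted differences above 0 and 15 below. Msr1, a scavenger receptor for modified lipoproteins, was at 84.6, 220 and 112 CPM and then at 27.5, 41.4, 15.6 and 30.2, a fall of 2.27 ± 0.39 (adjusted p = 0.00295). Fcgr4, an activating IgG receptor, was at 210, 232 and 243 CPM and then at 80.2, 105, 32.9 and 121, a fall of 1.43 ± 0.28 (adjusted p = 0.0085). Both stayed called when any 1 of the 7 libraries was left out, and neither pair of groups overlapped. Fcgr2b, the inhibitory IgG receptor, was at 719, 923 and 832 CPM against 469, 536, 521 and 608, a fall of 0.63 ± 0.13 (adjusted p = 0.0125), lost without GW-CBD-LPS library 1 or GW-LPS libraries 3 or 4 (adjusted p of 0.0547 to 0.103). The fourth, Fcgr3, is a low-affinity IgG receptor and was at 3669, 7107 and 4737 CPM against 2782, 2706, 2921 and 3495. Its fall of 0.80 ± 0.19 (adjusted p = 0.0309) was 0.49 without GW-LPS library 3 (adjusted p = 0.322) and was also lost without GW-CBD-LPS libraries 1, 2 or 3 or GW-LPS library 4 (lowest adjusted p where lost, 0.0611). Related Fc receptor genes share sequence, and how reads were divided between them is not given in the sources used here.

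Receptors of the SLAM family and other immune checkpoints moved in both directions. Cd244a, a SLAM family receptor of immune cells, was at 148, 196 and 181 CPM in GW-LPS and at 28.5, 66.7, 10.8 and 37.0 in GW-CBD-LPS, a fall of 2.29 ± 0.38 (adjusted p = 0.00272). A second SLAM family receptor moved the other way: Slamf8 was at 25.6, 19.6 and 21.1 CPM and then at 51.4, 35.7, 56.9 and 43.4, a rise of 1.08 ± 0.19 (adjusted p = 0.00415). Both kept their call without any single library. Pdcd1, which encodes the inhibitory receptor PD-1, was at 35.4, 13.3 and 20.7 CPM and then at 58.6, 42.4, 67.4 and 59.0, a rise of 1.30 ± 0.29 (adjusted p = 0.0213). Its call was lost without GW-CBD-LPS libraries 1 or 3 or GW-LPS libraries 3 or 4 (adjusted p of 0.0592 to 0.165). Cd200r1, the receptor for the restraining neuronal signal CD200, was at 18.3, 18.3 and 16.8 CPM against 23.9, 23.4, 27.8 and 30.2, a rise of 0.57 ± 0.15 (adjusted p = 0.0423). That call was lost when any 1 library but GW-CBD-LPS library 2 was left out (adjusted p of 0.066 to 0.177). Of 27 tested checkpoint and exhaustion-linked receptors these 3 rose and Cd244a fell by edgeR, with a median of 0.12, and DESeq2 too called 3 higher and 1 lower.

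**Figure D2:**
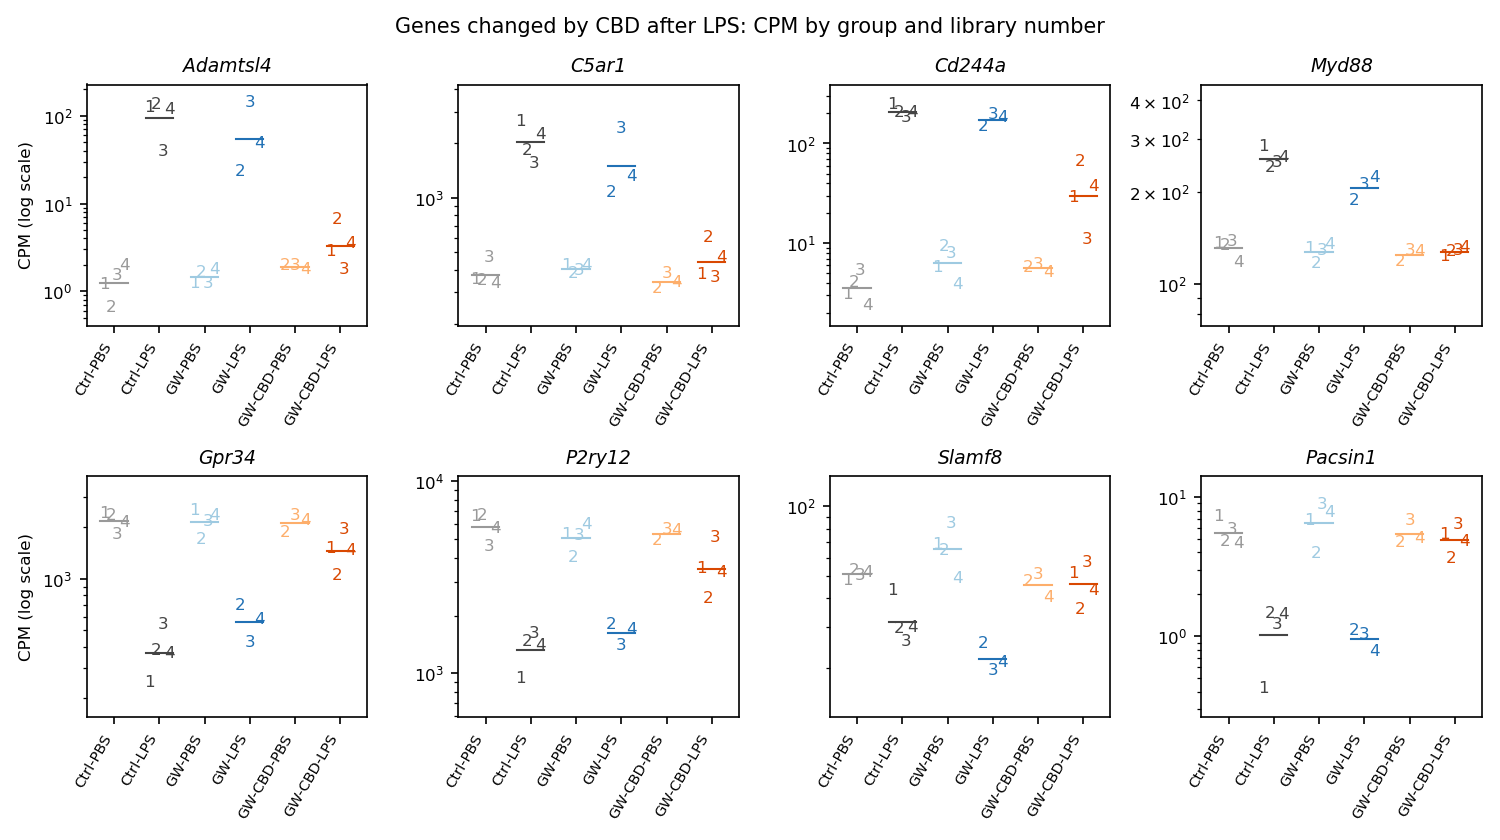
CPM (log axis) of 8 genes changed by CBD after LPS in all 22 libraries; each digit is a library at its number, and lines are the geometric mean of each group. In the upper row the GW-CBD-LPS digits (dark orange) lie below all GW-LPS digits (dark blue), and in the lower row above them.

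Of 28 tested homeostatic genes of microglia 5 rose with CBD and 0 fell by edgeR, and DESeq2 called 7 higher. Gpr34, a lysophosphatidylserine receptor, was at 693, 423 and 581 CPM in GW-LPS and at 1497, 1046, 1938 and 1460 in GW-CBD-LPS. The groups did not overlap, and the rise of 1.39 ± 0.23 (adjusted p = 0.00264) stayed called in every fit without 1 library. Siglech, a sialic acid-binding lectin that marks microglia, was at 1213, 920 and 1196 CPM against 1969, 1493, 2534 and 2262, a rise of 0.90 ± 0.16 (adjusted p = 0.00407). P2ry12, through which microglia steer their processes toward ATP and ADP, was at 1787, 1397 and 1682 CPM against 3517, 2454, 5077 and 3337. P2ry12 rose by 1.15 ± 0.21 (adjusted p = 0.00519), and its call missed the threshold without GW-LPS library 3 although the rise was 1.06 (adjusted p = 0.06). The matrix protein gene Sparc rose by 0.69 ± 0.16 and the cytokine gene Tgfb1, on which the microglial identity depends, by 0.48 ± 0.11. Their adjusted p were 0.0227 and 0.0232, and both calls were lost without GW-CBD-LPS libraries 1 or 3 or GW-LPS libraries 3 or 4, that of Sparc also without GW-CBD-LPS library 4, at adjusted p of 0.0532 to 0.159. In all, 22 of the 28 genes had a fitted difference above 0 and 6 below, and the median was 0.37. With a library left out 2 to 7 of them rose, 2 of them without GW-LPS library 3.

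Tmem119 was at 5462, 4299 and 4966 CPM against 6184, 5532, 7196 and 5596, with no overlap but a log2 difference of 0.32 ± 0.12 (adjusted p = 0.181). The fractalkine receptor Cx3cr1 was at 3182, 2281 and 2992 CPM against 3281, 3593, 3573 and 2992 (0.25 ± 0.15, adjusted p = 0.494). Trem2, the lipid receptor that drives the disease-associated state, was at 1173, 868 and 1067 CPM against 1563, 1155, 2184 and 2008 (0.74 ± 0.20, adjusted p = 0.0597), and DESeq2 called it (adjusted p = 0.0096). Apoe, its ligand and a lipid carrier, was at 6743, 9318 and 6178 CPM against 5757, 5346, 7518 and 7197 (-0.20 ± 0.28, adjusted p = 0.838). Of 28 tested disease-associated microglial genes DESeq2 called 3, all higher, and edgeR called 1, the cell adhesion molecule Cadm1. Cadm1 rose from 186, 179 and 159 CPM to 315, 245, 362 and 299, by 0.80 ± 0.13 (adjusted p = 0.00264), with no overlap and in every fit without 1 library.

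The genes with the largest rises included several of low level. Pacsin1, an endocytic adaptor, was at 1.10, 1.03 and 0.78 CPM against 5.36, 3.64, 6.36 and 4.76, a rise of 2.37 ± 0.36 (adjusted p = 0.00208) kept in every fit without 1 library. Duoxa1, the maturation factor of the dual oxidase Duox1, was at 1.05, 0.20 and 0.29 CPM against 6.85, 1.69, 12.1 and 8.69, a rise of 3.81 ± 0.71 (adjusted p = 0.00599; 0.0581 without GW-LPS library 3). Npnt, an integrin ligand of basement membranes, was at 31.3, 7.32 and 8.19 CPM against 107, 80.8, 88.7 and 53.5, a rise of 2.40 ± 0.45 (adjusted p = 0.00587; 0.0534 without GW-LPS library 3). All 3 had groups that did not overlap. The zinc importer Slc39a4 was at 2.89, 5.23 and 2.05 CPM against 12.01, 9.31, 23.7 and 11.2, a rise of 2.05 ± 0.44 (adjusted p = 0.0143), lost without GW-CBD-LPS library 3 (0.0829) or GW-LPS library 4 (0.0565). Tnfrsf17, the receptor BCMA that is best known in plasma cells, was at 2.33, 0.63 and 2.26 CPM against 7.28, 3.64, 17.2 and 10.1, a rise of 2.45 ± 0.61 (adjusted p = 0.0352). The call was lost when any 1 library but GW-CBD-LPS library 2 was left out (adjusted p of 0.0548 to 0.231). Beside it, the 7 B cell markers summed to 719, 204 and 540 CPM in GW-LPS libraries 2, 3 and 4 and to 918 to 1065 CPM in GW-CBD-LPS. Of them edgeR called 1, Cd79b, higher (0.92 ± 0.21, adjusted p = 0.0234, lost without GW-CBD-LPS libraries 1, 3 or 4 or GW-LPS libraries 3 or 4, at adjusted p of 0.0515 to 0.152), and Ms4a1 was at 6 to 48 counts a library over both groups. Their part in the rise of Tnfrsf17 was not tested.

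Of 40 tested genes of S phase and replication edgeR called 6 higher with CBD and 0 lower, and of 32 mitotic genes 1 higher. DESeq2 called 15 and 12, all higher. Tk1, the thymidine kinase of S phase, was at 5.34, 1.38 and 4.02 CPM in GW-LPS and at 42.9, 15.4, 13.5 and 42.5 in GW-CBD-LPS, a rise of 2.99 ± 0.59 (adjusted p = 0.00862; 2.62 and 0.0739 without GW-LPS library 3). Tk1 averaged 7.42 ± 2.46 CPM in GW-PBS (SD, n = 4), 4.20 ± 0.60 in GW-CBD-PBS (n = 3), 3.91 ± 2.42 in Ctrl-LPS (n = 4) and 8.27 ± 5.75 in Ctrl-PBS (n = 4). The GW-CBD-LPS mean of 28.6 ± 16.3 (n = 4) was above those of both saline groups of exposed mice, a difference that was not tested. Ccne2, a cyclin that starts S phase, was at 1.71, 0.69 and 1.42 CPM against 19.4, 6.81, 5.20 and 12.5, a rise of 3.10 ± 0.64 (adjusted p = 0.011), lost without GW-LPS library 3 (0.102) or 4 (0.0546). Its sister cyclin Ccne1 was at 1.64, 0.52 and 1.22 CPM against 16.6, 5.28, 5.26 and 11.6, a rise of 3.10 ± 0.78 (adjusted p = 0.037), lost when any 1 library but GW-CBD-LPS library 2 was left out (0.0523 to 0.236). CBD libraries 1 and 4 were the highest of the 4 in Tk1, Ccne1 and Ccne2, and all 4 lay above every GW-LPS library. Tcf19, a cell cycle-linked transcription factor, rose by 1.92 ± 0.43 (adjusted p = 0.0186; 0.0582 to 0.147 without GW-CBD-LPS library 1 or GW-LPS libraries 3 or 4). The division kinase gene Cdk1 was at 4.29, 1.81 and 4.25 CPM against 21.6, 8.58, 9.33 and 17.5, a rise of 2.04 ± 0.52 (adjusted p = 0.0403), lost when any 1 library but GW-CBD-LPS library 2 was left out (0.0544 to 0.255).

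All 40 tested genes of S phase and replication had a fitted difference above 0, with a median of 1.17. The 6 called by edgeR included Tk1, Ccne2, Tcf19, Ccne1 and the clamp loader subunit Rfc3. The call of Rfc3 was lost without GW-CBD-LPS libraries 1 or 4 or GW-LPS libraries 3 or 4 (adjusted p of 0.0985 to 0.2365). All 32 tested mitotic genes had a fitted difference above 0 as well, with a median of 1.74, and Cdk1 was the 1 called by edgeR. Well-known members of that list were Top2a (2.20 ± 0.71, adjusted p = 0.113) and the proliferation marker Mki67 (2.07 ± 0.86, adjusted p = 0.248). The level of the S phase list summed over its genes was 1354, 579 and 1018 CPM in GW-LPS libraries 2, 3 and 4 and 2285, 2074, 807 and 1910 in GW-CBD-LPS libraries 1 to 4, so the groups overlapped on that measure. Without GW-LPS library 3, edgeR called 0 S phase genes, with 15 at an unadjusted p under 0.05, and the median stayed at or above 0.87 in every fit without 1 library. Of the cell cycle inhibitors and p53 targets, 27 in number, DESeq2 called 4 higher and 2 lower. By edgeR 0 rose and 2 fell, the nuclease gene Aen (0.94 ± 0.15 lower, adjusted p = 0.00255, kept in every fit without 1 library) and the stress gene Gadd45g (0.96 ± 0.19 lower, adjusted p = 0.0101, lost without GW-LPS library 3 or 4 at 0.0508 and 0.0631). The inhibitor gene Cdkn1a, which encodes p21, was at 45.0, 47.5 and 45.3 CPM against 33.2, 33.7, 28.2 and 35.3, with no overlap but an adjusted p of 0.390 (-0.49 ± 0.25).

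Of 15 tested glucocorticoid targets 5 fell with CBD and 0 rose by edgeR, with a median of -1.57, and DESeq2 called 6 lower and 1 higher. Without GW-LPS library 3 the median was -0.46, and edgeR called 0 of them with 5 at an unadjusted p under 0.05. Fkbp5, a chaperone of the glucocorticoid receptor with an E-box in its window, was at 168, 786 and 292 CPM in GW-LPS and at 84.5, 113, 89.1 and 63.1 in GW-CBD-LPS. The groups did not overlap, and the fall of 2.25 ± 0.42 (adjusted p = 0.00599) was 1.39 without GW-LPS library 3 (adjusted p = 0.111). Ddit4, an inhibitor of mTOR signalling, was at 14.1, 70.4 and 42.8 CPM and then at 3.70, 3.77, 4.38 and 4.80, a fall of 3.35 ± 0.69 (adjusted p = 0.0108; 2.77 and 0.0973 without GW-LPS library 3). Klf9, a transcription factor and glucocorticoid target, was at 1.76, 95.0 and 6.19 CPM against 1.75, 2.18, 3.45 and 4.04, so the groups overlapped and 1 library held nearly all of the GW-LPS signal. Its fall of 3.59 ± 0.85 (adjusted p = 0.0258) was 0.47 without GW-LPS library 3 (adjusted p = 0.925), and the call was lost without each GW-CBD-LPS library too. High levels were not confined to GW-LPS library 3 in the series. In Ctrl-LPS libraries 1 to 4 Klf9 was at 41.8, 34.1, 4.52 and 43.2 CPM. Fkbp5 was at 401, 497, 167 and 485 CPM there, and Ddit4 at 41.6, 59.1, 25.4 and 126. GW-LPS library 3 was above all of these for Klf9 and Fkbp5 but not for Ddit4. Per1, a clock gene that glucocorticoids also induce, was at 13.5, 35.1 and 19.9 CPM against 4.87, 8.47, 10.4 and 7.05, a fall of 1.57 ± 0.35 (adjusted p = 0.0212), lost without GW-CBD-LPS libraries 1 or 4 or GW-LPS libraries 3 or 4 (0.0515 to 0.242). Cd163, a haemoglobin scavenger receptor of border macrophages, was the fifth called and fell by 1.31 ± 0.34 (adjusted p = 0.0427). Without GW-LPS library 3 its fall was 0.84, and calls were lost there and without GW-CBD-LPS libraries 1, 3 or 4 or GW-LPS library 4 (0.111 to 0.388). Beside it, the 8 border macrophage markers summed to 378, 500 and 602 CPM in GW-LPS and to 301, 411, 304 and 283 in GW-CBD-LPS, and their part was not tested.

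Several of the steepest falls also had their highest value in GW-LPS library 3. Cd300lf, an inhibitory lipid receptor of myeloid cells, was at 35.0, 480 and 67.3 CPM against 9.78, 12.5, 6.98 and 7.20, a fall of 4.41 ± 0.85 (adjusted p = 0.00681) that was 2.48 without GW-LPS library 3 (adjusted p = 0.143). Pik3ip1, an inhibitor of PI3 kinase, was at 4.06, 282 and 8.94 CPM against 10.7, 6.89, 11.6 and 5.96. Its fitted fall of 3.49 ± 0.91 (adjusted p = 0.0467) turned to a difference of 0.44 in the other direction without that library (adjusted p = 0.933), and the call was lost without each GW-CBD-LPS library too. Slc10a6, a carrier of sulphated steroids, was at 1.84, 40.7 and 8.28 CPM against 1.32, 0.83, 0.96 and 1.05, a fall of 4.02 ± 0.96 (adjusted p = 0.0279), 2.27 without GW-LPS library 3 (0.377) and lost without each GW-CBD-LPS library (lowest adjusted p where lost, 0.0577). Jaml, a junctional adhesion molecule of leukocytes, was at 0.61, 21.7 and 3.88 CPM against 0.11, 0.05, 0.17 and 0.22, a fall of 5.98 ± 1.48 (adjusted p = 0.0336) lost when any 1 library but GW-LPS library 2 was left out (0.0547 to 0.292). Map3k6, a stress kinase, was at 2.68, 58.5 and 7.35 CPM against 0.72, 1.61, 0.54 and 0.91, a fall of 4.59 ± 0.75 (adjusted p = 0.00255) that was smaller, 2.40, but still called without GW-LPS library 3 (0.0423). Plet1, a surface glycoprotein gene, was at 2.68, 58.0 and 12.6 CPM against 0.14, 0.39, 0.23 and 0.11, a fall of 6.74 ± 1.07 (adjusted p = 0.00247) kept in every fit without 1 library. The antisense gene Plet1os overlaps Plet1 and fell with it (5.70 ± 0.89, adjusted p = 0.0021); with the strand setting of the counting unknown, their reads cannot be told apart.

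**Figure D3:**
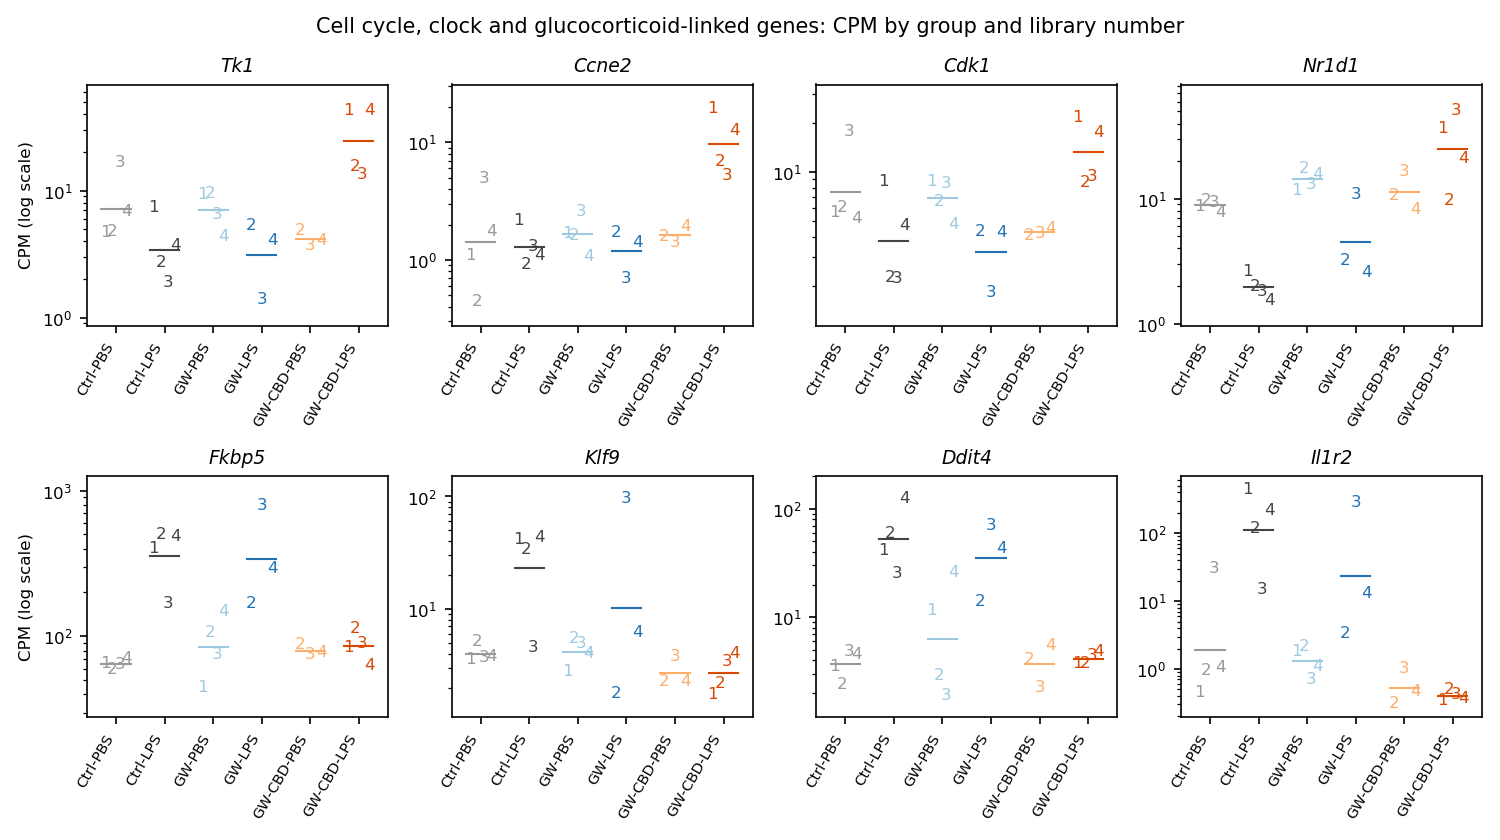
CPM (log axis) of 8 genes in all 22 libraries; each digit is a library at its number, and lines are the geometric mean of each group. Tk1, Ccne2 and Cdk1 are above all GW-LPS libraries in every GW-CBD-LPS library, and GW-LPS library 3 is the highest GW-LPS library for Fkbp5, Klf9, Ddit4 and Il1r2.

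Cytokine feedback, iron and lipid genes each had 1 or 2 members called by edgeR. Socs3, which limits STAT3 signalling, was at 1087, 1755 and 1158 CPM against 430, 920, 417 and 600, a fall of 1.17 ± 0.29 (adjusted p = 0.0365; lost without each of GW-CBD-LPS libraries 1, 3 and 4 and GW-LPS libraries 3 and 4, 0.0713 to 0.274). Lifr, the receptor for leukaemia inhibitory factor, was at 106, 170 and 152 CPM against 51.3, 95.5, 44.9 and 61.2, a fall of 1.18 ± 0.24 (adjusted p = 0.0114; lost without GW-CBD-LPS libraries 1 or 3 or GW-LPS libraries 3 or 4, 0.0505 to 0.105). They were the 2 called of 20 tested SOCS and STAT3 genes (median -0.09), of which DESeq2 called 3, all lower. Of 25 immediate early genes edgeR called Myc alone and DESeq2 called 2, both lower. This growth regulator was at 107, 228 and 122 CPM against 57.3, 96.3, 82.8 and 66.2, a fall of 1.01 ± 0.23 (adjusted p = 0.0213), 0.59 without GW-LPS library 3 (0.279) and lost without GW-CBD-LPS libraries 1 or 4 (lowest adjusted p where lost, 0.0616). Slc39a14, a zinc and iron importer, was at 75.1, 68.8 and 98.8 CPM against 22.5, 40.4, 18.5 and 16.1, a fall of 1.73 ± 0.29 (adjusted p = 0.00295) kept in every fit without 1 library. Slc40a1, the iron exporter ferroportin, moved the other way, from 126, 173 and 115 CPM to 294, 222, 270 and 208, a rise of 0.85 ± 0.21 (adjusted p = 0.0366; lost without GW-CBD-LPS libraries 1 or 3 or any GW-LPS library, 0.0581 to 0.177). They were the 2 called of 14 tested iron and metallothionein genes. Soat1, which esterifies cholesterol for storage, fell by 0.53 ± 0.14 (adjusted p = 0.0494) as the 1 called of 22 lipid efflux and droplet genes, and its call was lost without any 1 of the 7 libraries (0.0574 to 0.279) and with other size factors.

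Of 21 tested genes of the endocannabinoid system and CBD-linked receptors edgeR called 1, DESeq2 called 2 higher and 2 lower, and the median was 0.12. The gene called by edgeR was Trpv4, an osmosensitive calcium channel, at 48.3, 75.0 and 45.9 CPM against 33.1, 33.2, 32.7 and 26.5, a fall of 0.85 ± 0.22 (adjusted p = 0.0471), lost without any 1 of the 7 libraries (0.0546 to 0.388) and with other size factors. The cannabinoid receptor gene Cnr2 was at 36.8, 114 and 42.5 CPM against 35.7, 40.7, 36.9 and 31.9 (-0.83 ± 0.28, adjusted p = 0.130), with GW-LPS library 3 far above the rest. Trpv2, a channel that CBD opens, was at 132 to 162 CPM and at 153 to 161 (0.11 ± 0.11, adjusted p = 0.713).

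Of the interferon and antigen presentation genes edgeR called 1. By edgeR 0 of 47 tested type I interferon genes were called, with 7 at an unadjusted p under 0.05 and a median of 0.27, and DESeq2 called 3, all higher. Over all 16554 tested genes DESeq2 called 900, 529 of them higher. Ifit3, an antiviral effector, was at 39.7, 19.99 and 23.5 CPM against 64.6, 71.9, 42.9 and 56.1 (1.08 ± 0.33, adjusted p = 0.0906), with no overlap, and DESeq2 called it (adjusted p = 0.017). Gbp7 was the 1 gene called by edgeR of 16 interferon-inducible GTPases, of which DESeq2 called 1 higher and 1 lower. It was at 185, 173 and 221 CPM against 91.1, 164, 77.0 and 80.8, a fall of 0.90 ± 0.22 (adjusted p = 0.0336; lost when any 1 library but GW-CBD-LPS library 2 was left out, 0.057 to 0.163), while the median of that list was 0.26. Among 14 class II presentation genes 0 were called by edgeR, 6 had an unadjusted p under 0.05, and the median was 0.45, and DESeq2 called 1 higher. The class II chain gene H2-Aa was at 28.6, 62.4 and 44.0 CPM against 93.4, 43.4, 138 and 113 (1.10 ± 0.43, adjusted p = 0.213), and the invariant chain gene Cd74 at 246, 485 and 372 against 522, 289, 776 and 633 (0.59 ± 0.38, adjusted p = 0.527). In both GW-CBD-LPS library 2 fell among the GW-LPS values.

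The housekeeping machinery of the cell gave no calls by edgeR. There were 0 calls among 80 cytosolic ribosomal protein genes (median 0.02), 75 mitochondrial ribosomal (0.01), 75 nuclear respiratory chain (0.17), 10 mitochondrially encoded (-0.02), 31 proteasome (0.07), 22 cholesterol (0.08) and 16 heat shock genes (-0.25), with 0, 2, 0, 0, 1, 6 and 2 at an unadjusted p under 0.05, and DESeq2 called 0 in each of these lists. Limma voom with quality weights called 3512 of the 16554 tested genes. In these lists, in the same order, it called 13, 11, 3, 1, 1, 2 and 7 lower and 0, 1, 0, 0, 0, 5 and 0 higher. EdgeR also called 0 of 38 lysosomal genes (median 0.05), 20 class I presentation genes (0.21), 25 antioxidant genes linked to Nrf2 (0.03) and 26 endoplasmic reticulum stress genes (-0.04), with 5, 2, 5 and 7 at an unadjusted p under 0.05, where DESeq2 called 4, 1, 2 and 3. Ddit4 was the 1 gene called, lower, of 26 glycolysis and hypoxia genes (median 0.01).

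**Figure D4:**
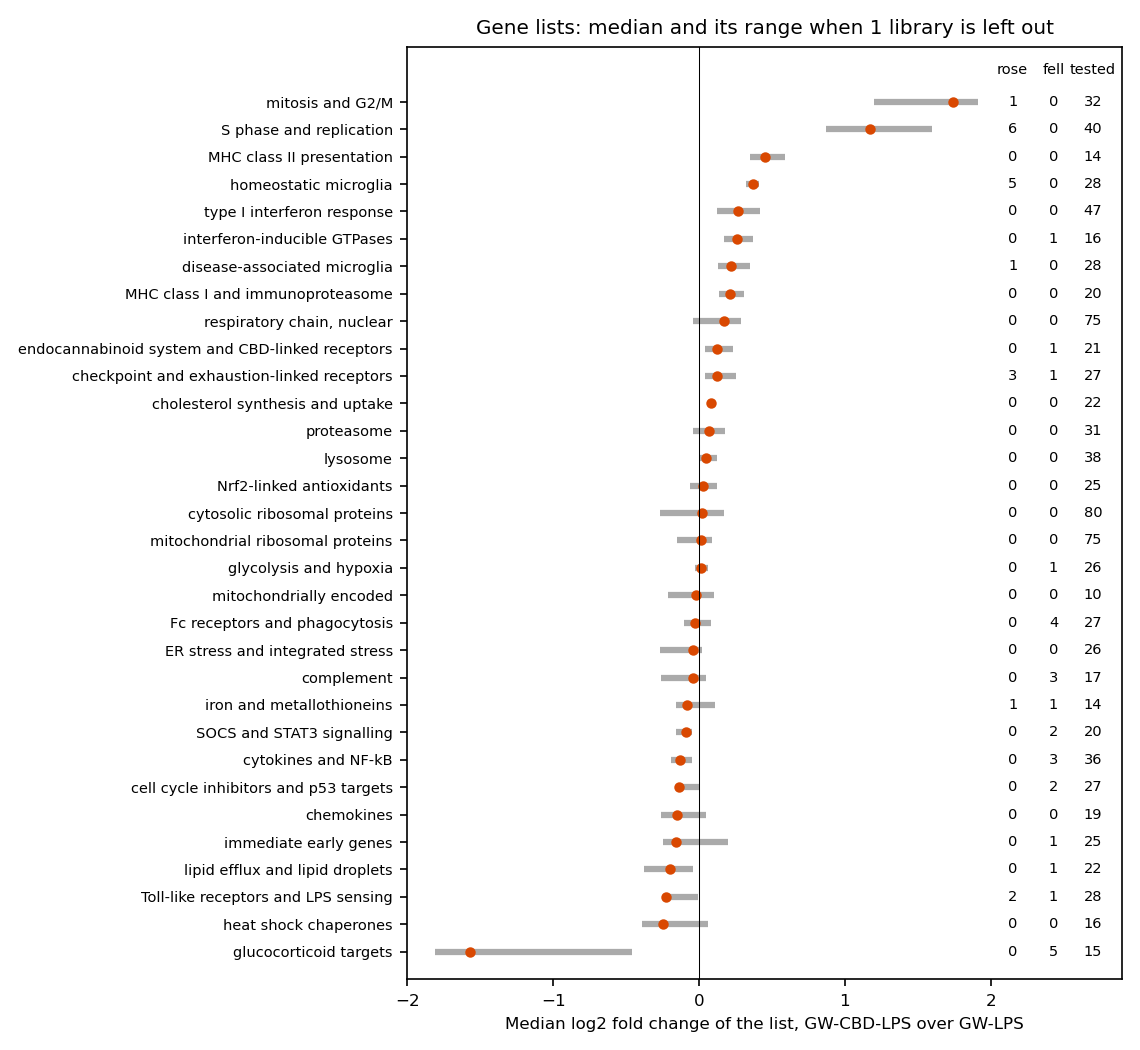
Median log2 fold change (points) of each of 32 gene lists in GW-CBD-LPS over GW-LPS, with the range of that median over the 7 fits without 1 compared library (grey bars); columns give the genes that rose, fell and were tested. Mitosis and S phase lie farthest to the right at 1.74 and 1.17, and glucocorticoid targets farthest to the left at -1.57 with the widest bar.

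CBD without LPS was measured in other libraries: between GW-CBD-PBS and GW-PBS 0 of 16554 genes were called by edgeR (0.0% of those tested), with 1569 at an unadjusted p under 0.05 and a smallest adjusted p of 0.524; limma voom (quality weights) called 217 and DESeq2 0. Adamtsl4 differed by 0.37 there, C5ar1 by -0.23, Myd88 by -0.03, Gpr34 by -0.03 and P2ry12 by 0.06 on the log2 scale, with adjusted p from 0.708 to 0.962. Whether the CBD difference itself depended on LPS was tested as an interaction over the 4 groups of exposed mice, and 3 of 16554 genes passed (0.0181%): Adamtsl4 (-4.65), Slamf8 (1.61) and Arl5c (1.96), each with an adjusted p of 0.0386. Arl5c, a small GTPase of the ARF family, was at 9.89, 5.63 and 6.71 CPM in GW-LPS against 21.4, 17.8, 20.97 and 19.2, a rise of 1.42 ± 0.23 (adjusted p = 0.00259). The interactions of Slamf8 and Arl5c were larger than their rises after LPS (1.08 and 1.42). Their fitted CBD difference without LPS was thus below 0 and added to the interaction. Slamf8 was at 68.6, 64.6, 84.4 and 48.7 CPM in GW-PBS and at 47.2, 50.5 and 40.4 in GW-CBD-PBS. Next in order were Tha1, which encodes a threonine aldolase, and Pacsin1, both with an adjusted interaction p of 0.0561. Tha1 was at 40.5, 69.4 and 52.8 CPM against 22.3, 26.0, 26.6 and 21.3, a fall of 1.17 ± 0.14 (adjusted p = 0.000243). The 3 interaction calls depended on single libraries: 0 genes were called without GW-CBD-LPS libraries 1, 3 or 4, GW-LPS libraries 3 or 4, GW-PBS libraries 1 or 3 or any GW-CBD-PBS library (1789 to 2549 at an unadjusted p under 0.05), 211 without GW-CBD-LPS library 2, 92 without GW-LPS library 2 and 19 without GW-PBS library 2.

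The response to LPS in mice without exposure, measured in 8 libraries that the CBD comparison does not use, gave 1785 genes higher (10.8%) and 1593 lower (9.62%) of those tested. Of the 206 genes lower with CBD, 189 (91.7% of them and 10.6% of the control list) were among those that LPS raised in control mice, 0 were among those it lowered and 17 were not called. Of the 176 genes higher with CBD, 146 (83.0% and 9.17%) were among those that LPS lowered, 0 were among those it raised and 30 were not called. Without GW-LPS library 3 the counts were 51 of 53 and 43 of 44. All groups entered 1 fit and so shared an estimate of the spread.

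Levels of some named genes in GW-PBS, GW-LPS and GW-CBD-LPS are set side by side. Myd88 averaged 128 ± 7.90 CPM in GW-PBS (SD, n = 4), 208 ± 18.0 in GW-LPS (n = 3) and 128 ± 3.85 in GW-CBD-LPS (n = 4). C5ar1 averaged 406 ± 19.04, 1603 ± 728 and 453 ± 112 CPM in the same groups. Cd244a averaged 6.72 ± 2.41, 175 ± 24.7 and 35.7 ± 23.3 CPM, and so stayed above its saline mean in all 4 CBD libraries. Gpr34 averaged 2179 ± 345, 565 ± 135 and 1485 ± 364 CPM, and P2ry12 5117 ± 811, 1622 ± 202 and 3596 ± 1091. H2-Aa averaged 329 ± 120 CPM in GW-PBS, 45.0 ± 16.9 in GW-LPS and 96.7 ± 39.9 in GW-CBD-LPS. In the 3 GW-CBD-PBS libraries Myd88 was at 119, 129 and 128 CPM and C5ar1 at 314, 381 and 340. Gpr34 was at 1854, 2340 and 2186 CPM there, and P2ry12 at 4907, 5594 and 5518. Some other genes lay outside the range of GW-PBS and GW-LPS. Nr1d1 was at 11.6 to 17.5 CPM in GW-PBS, below GW-CBD-LPS libraries 1, 3 and 4. Il1r2 was at 0.70 to 2.14 CPM in GW-PBS, above all 4 GW-CBD-LPS libraries.

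**Figure D5:**
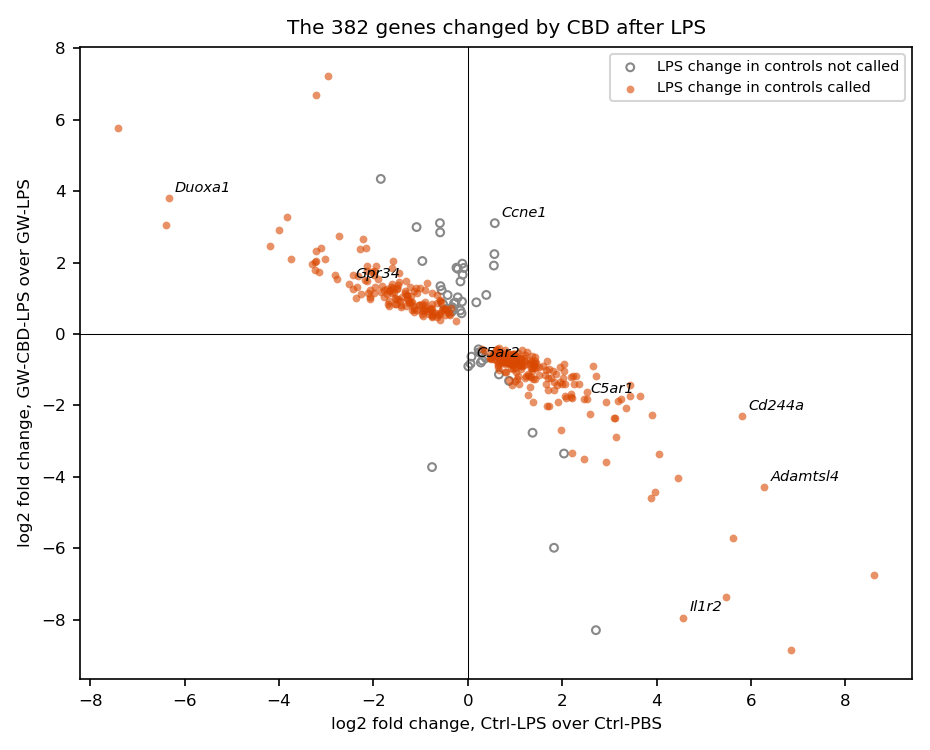
Each of the 382 genes changed by CBD after LPS, with its log2 fold change for LPS in control mice (x axis) and for CBD after LPS in exposed mice (y axis). Filled orange points were also called in the control comparison, and all of them lie in the upper left or lower right quadrant.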

How the data were processed

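Per the labels, the authors mapped reads to the mouse build GRCm38/mm10. The deposited values are raw counts of 54532 genes in 22 libraries. Aligner, counter and strand setting: not given in the sources used here. Microglia were sorted as live CD45mid, CD11b+ and CD11a- cells, which would remove most neutrophils, per the labels' protocols.

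Gene positions came from GENCODE M21. Counts were tested with edgeR 4.0.16 (R 4.3.3; TMM scaling, filterByExpr, 16554 genes, 1 mean for each of 6 groups over all 22 libraries, Benjamini-Hochberg adjusted p under 0.05). Errors are the log2 fold change over the root of F, and CPM are TMM-scaled; summed marker levels use library totals. The script was tested on simulated data. Members and gene lists were chosen with earlier results of these data known. Named genes were the 10 highest and 10 lowest called with at least 5 CPM in the higher group, the 3 called genes of smallest p in each list, the 5 of smallest p in the interaction, and 14 fixed index genes; Tlr4, Cd14, Trpv2, Top2a, Mki67, Ms4a1, Ly6g, Cd79b and the fourth and later called members of a list were named after their values were seen. Some list members are not reported here. Motifs were chosen after values were seen, and so was the promoter window, which was shortened to end at the RefSeq start. In the 300-base window first searched, the E-box was in 19.1% of lower and 10.0% of tested genes, and the E2F-type motif in 37.5% of S phase and 8.21% of tested genes. No 2 libraries of a group agreed within sampling noise (chi-square per degree of freedom of 18.8 or more). Replicate numbers are those of the library names. DESeq2 1.42.0 and limma 3.58.1 served as alternatives.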

Additional observations from a re-analysis of the deposited data

Results flagged for a closer look

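In 5 of 114 values tested within the 4 GW-CBD-LPS libraries, 1 library lay far from the other three (its gap to the nearest over 0.829 of the range; chance marks about 1 in 20 groups). Gbp7, a called gene, was highest in library 2 at 163.7 CPM. Trpv4, also called, was lowest in library 4 at 26.46 CPM. The summed level of iron and metallothionein genes was highest in library 4 at 8867 CPM. Border macrophage markers summed highest in library 2 at 411.1 CPM, and endothelial markers lowest in library 1 at 28.83 CPM. The CBD difference with LPS differed from that without LPS in 3 genes by a test of the interaction: Adamtsl4 by -4.648, Arl5c by 1.962 and Slamf8 by 1.614 on the log2 scale.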

How the results depend on the processing

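The 382 calls after LPS became 900 with DESeq2 (529 higher, 371 lower), 3512 with limma voom and quality weights, 0 when only the 7 compared libraries were fitted and 672 without 3 libraries of other groups that had raised neutrophil markers (Ctrl-PBS 3, Ctrl-LPS 1 and GW-PBS 1). They were 380 with other size factors (188 higher) and 333 without a filter, and 97 to 532 without 1 compared library. The 3 interaction calls became 380 with DESeq2, 2287 with limma voom, 19 without a filter, 5 without those 3 libraries, 0 with the replicate block (1813 at an unadjusted p under 0.05) and 0 to 211 without 1 library. CBD without LPS kept 0 calls (523 to 3303 at an unadjusted p under 0.05) except with limma voom (217). The cause of these changes was not tested. Pik3ip1 changed direction with limma voom (0.16) and without GW-LPS library 3 (0.44; -4.02 at the other end over the fits without 1 library).

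With the replicate block 269 genes were called after LPS. Same-numbered GW-LPS and GW-CBD-LPS libraries correlated at -0.0354, 0.0851 and 0.124 in their deviations from the group means. Libraries of unlike number in these groups correlated at -0.145 to 0.0911. Other groups were not checked, and the numbers were not taken as pairs. Of the 67 named genes 55 were called, and all 55 lost their call in the fit of 7 libraries. Of these 55, 13 lost it under the block, 3 with other size factors, 2 without a filter and 2 with limma voom. Pik3ip1, whose direction changed with limma voom, is not among those 2. DESeq2 called 381 of the 382. With DESeq2, 309 of 371 lower genes were raised by LPS in control mice and 2 lowered, and 371 of 529 higher genes were lowered and 3 raised; this alternative was chosen after seeing the data.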

Other observations

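Genes of 3 groups were chosen after their values were seen, and they are given as counts by edgeR with no test of the group. Of 56 tested ribosome assembly genes 17 were called lower with CBD and 0 higher, 54 had a fitted difference below 0, and their median was -0.53. Without GW-LPS library 3 the number called was 4, and over all fits without 1 library it was 2 to 21. Their summed level was 3383, 3479 and 3530 CPM in GW-LPS libraries 2, 3 and 4 and 2338, 2897, 2276 and 2417 in GW-CBD-LPS libraries 1 to 4, and the groups did not overlap. Gnl3, a nucleolar GTPase of growing cells, was lower by 1.05 on the log2 scale and stayed called in every fit without 1 library. All 20 cytosolic aminoacyl-tRNA synthetase genes, which load amino acids onto tRNA, had a fitted difference below 0, and 4 were called lower (Yars, Mars, Farsb and Tars), with a median of -0.39. Yars went from 116, 137 and 128 CPM to 68.6, 93.0, 66.4 and 59.5 and stayed called in every fit without 1 library; the other three lost their calls in 4 to 6 of those fits.

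Clock genes moved in both directions. Of 17 tested, 4 were called higher (Nr1d1, Dbp, Tef and Hlf) and 2 lower (Per1 and Nfil3), and the median was 0.15. Over the fits without 1 compared library 0 to 4 were called higher and 0 to 2 lower, with a median of -0.19 to 0.78. Without GW-LPS library 4 edgeR called 0 in either direction. Tef and Hlf each lost their call in 5 of those fits (adjusted p of 0.0534 to 0.157) and Nfil3 in 6 (0.056 to 0.3696). Nr1d1, a repressor of the core clock, was at 3.22, 10.9 and 2.58 CPM in GW-LPS and at 36.5, 9.67, 51.3 and 21.1 in GW-CBD-LPS, with an overlap through CBD library 2 (2.42 ± 0.48, adjusted p = 0.00923; 0.0582 without GW-LPS library 4). Dbp, an output gene of the clock, was at 2.17, 5.57 and 1.97 CPM and then at 17.9, 3.35, 47.2 and 12.7, again overlapping through library 2 (2.65 ± 0.56, adjusted p = 0.0138; lost without GW-CBD-LPS library 3 or GW-LPS libraries 2 or 4, at 0.0527 to 0.0848). The hour at which each brain was taken is not in the labels used here.

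Further genes that stayed called in every fit without 1 library were also named after their values were seen. Rab32, a GTPase of lysosome-related organelles, had the smallest adjusted p of the comparison: it was at 243, 295 and 276 CPM and then at 142, 137, 137 and 150, a fall of 0.94 ± 0.10 (adjusted p = 0.000176). Hcar2, the receptor for niacin and beta-hydroxybutyrate, fell from 287, 822 and 425 CPM to 104, 199, 76.5 and 108 (2.07 ± 0.31 lower, adjusted p = 0.00194), and Alox5, which makes leukotriene precursors, from 253, 319 and 344 to 124, 179, 107 and 121 (1.20 ± 0.19 lower, adjusted p = 0.00208). Il7r, the interleukin 7 receptor, rose from 3.63, 4.02 and 2.72 CPM to 13.6, 10.0, 17.6 and 10.8 (1.91 ± 0.28, adjusted p = 0.00156), and Oxct1, a mitochondrial enzyme that uses ketone bodies, from 206, 140 and 180 to 323, 266, 315 and 367 (0.86 ± 0.13, adjusted p = 0.0016). In none of these 5 did the groups overlap, as in 366 of the 382 called genes and 12.8% of all tested genes, and the call favours such genes.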
